A study of Mus musculus with 2 samples.

Results

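The enzymes that make prostaglandins and leukotrienes were examined as a set of 10 genes, Ptgs1, Ptgs2, Ptges, Ptgds, Ptgis, Hpgds, Alox5, Alox5ap, Lta4h and Alox15. They were taken by name, and all 10 were found among the 20330 genes of the table. The data were 1 WT and 1 KO library of adipose tissue macrophages (ATM), the macrophages of fat, sorted by FACS from visceral adipose tissue as cells stained for F4/80 and CD11b. Mice were on a C57BL/6 background and had received a high-fat diet for 12 weeks, started at 4 weeks of age. WT mice were hMRP8cre-;Hif-1αfl/fl;ApoE-/- and KO mice were hMRP8cre+;Hif-1αfl/fl;ApoE-/-, so that both were labelled ApoE-/- and carried loxP-flanked Hif-1α alleles. The Cre recombinase was driven by the human MRP8 promoter, which is active in myeloid cells including neutrophils. The comparison asked how these genes differed when HIF-1α, the part of the HIF-1 complex that low oxygen stabilises, was deleted in myeloid cells. It is not stated whether a library was made from 1 mouse or from several.

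Prostaglandins and leukotrienes are eicosanoids, short-lived lipid mediators made from arachidonic acid, which phospholipases release from membranes. Cyclooxygenases convert arachidonic acid to prostaglandin H2, and terminal synthases turn this into prostaglandin E2, prostaglandin D2, prostacyclin or thromboxane. Lipoxygenases take the other branch: ALOX5, which receives its substrate from the membrane protein FLAP, forms leukotriene A4, and LTA4H converts this to leukotriene B4, an attractant of neutrophils. Macrophages can run both branches, and the enzymes they carry set which mediators they release.

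Each genotype had a single library, so there was no replicate error against which to weigh any difference, and no value below has a p-value. FPKM summed to 585823 in WT and 568329 in KO, and the smallest recurring step of FPKM x kb, the worth of 1 fragment, was 0.171 in WT and 0.134 in KO, so that KO was the deeper library. Fragment numbers given below are estimates from this step. Libraries were amplified by PCR, and fragments may be copies. The targeted gene Hif1a was at 30.4 FPKM in WT against 20.97 in KO, which is 1.45 times lower, as a value over the whole gene that does not resolve the deleted part. Apoe was at 94.3 and 117 FPKM, above 91.8% and 93.5% of listed genes, which goes against a loss of its transcript under the shared label ApoE-/-. The table gives 1 value per gene and does not show which part of Apoe was read. Macrophage markers summed to 6126 FPKM in WT against 6370 in KO over the 7 of 8 listed genes analysed here, with F4/80 (Adgre1) at 299 and 239 FPKM. Lyz2 and Cd14 made up most of this sum, and single markers went either way within 3-fold, Fcgr1 at 49.3 and 21.9 FPKM and Mertk at 38.0 and 88.1 FPKM.

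The set did not move in one direction. Of the 10 genes, 9 passed the filter of 1 FPKM in either library, and Ptges was listed at 0 in both, as were 44.9% of all genes in the table. Ptgs2, Ptgds and Ptgis were past 3-fold lower in KO, and Hpgds and Alox15 were past 3-fold higher. Ptgs1, Alox5, Alox5ap and Lta4h were within 3-fold. Over all genes compared, 13.7% were past 3-fold lower and 13.6% past 3-fold higher, 27.3% in all. The 3 lower genes are those that the study had picked from these same libraries, and their direction is therefore no independent evidence. Among the other 7 genes, 6 passed the filter and 2 of these were past 3-fold, a share of 33.3%. Beside it stood 27.3% of all genes compared, 18.1% of those with a mean of at least 5 FPKM and 11.5% of those at 1 FPKM or more in both libraries, filters that these 6 genes also pass. With 6 genes and no replicates, nothing is read from this share. The median difference of the 9 genes was 0.17 on the log2(FPKM + 1) scale, against 0.03 over all genes compared. In RNA from sorted cells as a pool, a smaller share of cells with a transcript and less of it per cell cannot be told apart.

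**Figure D1:**
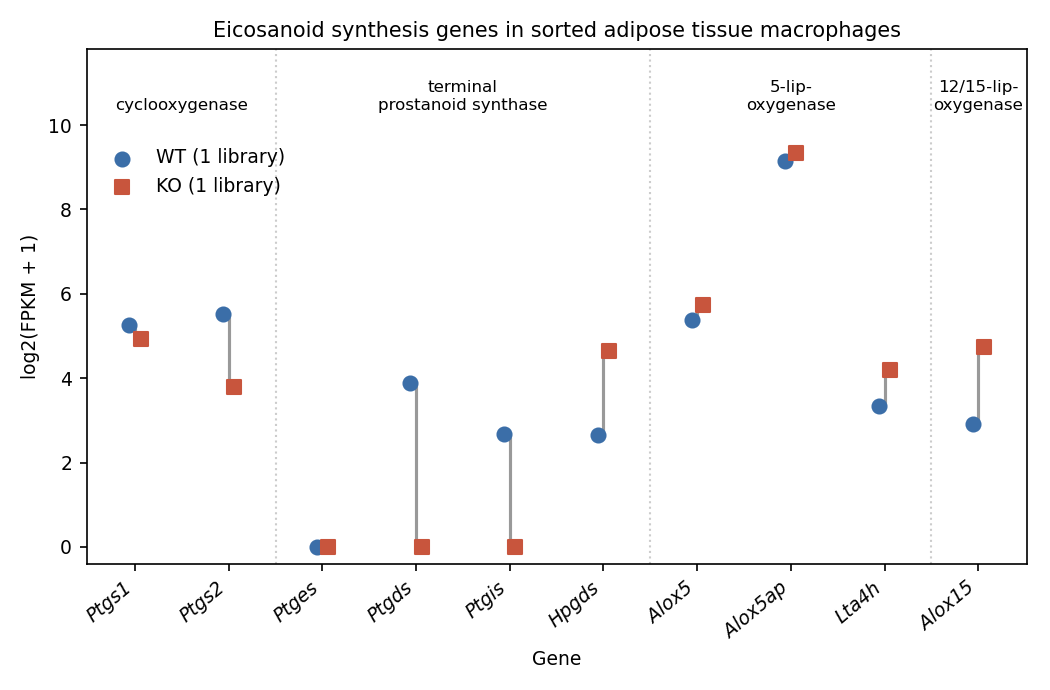
Expression of the 10 synthesis genes as log2(FPKM + 1) in the single WT library (blue circles) and the single KO library (red squares), with a grey line joining both values of a gene and dotted lines between enzyme classes. Ptgs2, Ptgds and Ptgis are lower in KO, Hpgds and Alox15 are higher, Alox5ap is the highest in both, and Ptges is at 0 in both.

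Levels are per transcript length and can be ordered within a library. Alox5ap led in both libraries by a wide margin, at 569.8 FPKM in WT against 643 in KO, above 98.3% and 98.6% of the genes listed in each. In WT it was followed by Ptgs2, Alox5 and Ptgs1, which lay between 37.1 and 45.1 FPKM and cannot be ranked without replicates. In KO, Alox5 was the second at 52.1 FPKM, and Ptgs1, Alox15 and Hpgds lay close together between 24.0 and 29.3 FPKM. Ptgs2 was above 83.9% of listed genes in WT and 57.5% in KO. Alox15 and Hpgds moved the other way, from above 38.6% and 33.5% of listed genes in WT to above 74.2% and 72.7% in KO.

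Promoter sequences from RefSeq on GRCm38.p6 were found for 7 of the 10 genes. The promoters of Ptgs2, Ptgds and Hpgds are shown because these are the genes past 3-fold that had an entry, 2 of them lower and 1 higher in KO. Each runs from 250 bases before the annotated start to 50 bases from it on, and capitals mark both forms of the core of the hypoxia response element to which HIF-1 binds, ACGTG and GCGTG, on either strand.

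Ptgs2, chr1:150099781-150100080, plus strand: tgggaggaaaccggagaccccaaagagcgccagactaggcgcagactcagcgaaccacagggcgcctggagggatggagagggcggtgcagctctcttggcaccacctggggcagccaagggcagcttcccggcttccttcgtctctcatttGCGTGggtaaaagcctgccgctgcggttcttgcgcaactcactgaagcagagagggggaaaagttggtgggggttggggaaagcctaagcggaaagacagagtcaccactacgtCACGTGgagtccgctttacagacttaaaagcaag

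Ptgds, chr2:25469700-25469999, minus strand: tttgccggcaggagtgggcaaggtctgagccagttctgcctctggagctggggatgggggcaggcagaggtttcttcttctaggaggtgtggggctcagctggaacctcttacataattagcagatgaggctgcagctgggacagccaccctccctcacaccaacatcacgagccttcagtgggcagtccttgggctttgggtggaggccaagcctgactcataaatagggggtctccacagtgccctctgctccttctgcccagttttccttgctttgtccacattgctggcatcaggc

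Hpgds, chr6:65144681-65144980, minus strand: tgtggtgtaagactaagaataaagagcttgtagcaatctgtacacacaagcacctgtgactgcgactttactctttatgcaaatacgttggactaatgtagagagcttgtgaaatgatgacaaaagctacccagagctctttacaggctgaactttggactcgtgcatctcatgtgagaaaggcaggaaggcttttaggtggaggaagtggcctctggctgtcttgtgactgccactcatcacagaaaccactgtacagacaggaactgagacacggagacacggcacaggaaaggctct

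In the Ptgs2 window ACGTG was read on both strands at overlapping positions, since its letters there form the palindrome CACGTG, from base 17 to base 22 counted from the annotated start. The form GCGTG began 98 bases before the start. A match of letters does not show that HIF-1 binds there, and binding was not measured. Of the 7 windows, those of Ptgs2 and Ptges held a match, that of Ptges to GCGTG alone. Among the 32851 RefSeq promoter windows of this length, 19.6% held ACGTG, 32.4% GCGTG and 43.8% at least 1 of them. The windows of Ptgds, Hpgds, Ptgs1, Alox5 and Lta4h did not hold these letters, which says nothing about sites elsewhere.

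The cyclooxygenases were compared first. PTGS1 is the constitutive and PTGS2 the inducible enzyme of prostaglandin synthesis. Ptgs2 (ENSMUSG00000032487) lies on chromosome 1 of GRCm38 from 150100031 to 150108227. Its level was 45.1 FPKM in WT against 12.9 in KO, a ratio of WT to KO of 3.50 and a difference of -1.73 on the log2(FPKM + 1) scale. These levels rested on an estimated 635 and 232 fragments. Of the genes at a mean of 20 to 50 FPKM, the range of Ptgs2, 6.43% were past 3-fold lower in KO. Ptgs1 (ENSMUSG00000047250) was at 37.1 FPKM in WT against 29.3 in KO, a difference of -0.33, on an estimated 624 and 628 fragments. Both were lower in KO, Ptgs2 by more, so that the level of Ptgs2 relative to Ptgs1 went from 1.21 in WT to 0.44 in KO. The summed cyclooxygenase level was 82.2 FPKM in WT against 42.2 in KO.

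Among the terminal synthases, the 2 enzymes that form prostaglandin D2 went in opposite directions. Ptgds (chr2:25466709-25470046), the lipocalin-type synthase best known from brain and fat, was at 13.7 FPKM in WT, an estimated 66.8 fragments over a transcript of 830 nt, and was listed at 0 in KO. Hpgds (chr6:65117293-65144908), the haematopoietic synthase of mast cells, macrophages and some T cells, was at 5.30 FPKM in WT against 24.0 in KO, a ratio of KO to WT of 4.53 and a difference of 1.99, on an estimated 108 and 622 fragments. Ptgds was thus the higher in WT, 2.59 times the level of Hpgds, and Hpgds was the one listed above 0 in KO. Their sum was 19.0 FPKM in WT against 24.0 in KO. Of the genes at a mean of 10 to 20 FPKM, where Hpgds lay, 10.2% were past 3-fold higher in KO.

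Ptgis (chr2:167191805-167240604), the synthase of prostacyclin, was at 5.35 FPKM in WT, an estimated 59.8 fragments, and was listed at 0 in KO. No fold is given for a gene listed at 0, because a value of 0 in this table can be a failed estimate. Among genes at 10 to 20 FPKM in WT with a transcript under 1000 nt, as Ptgds had, 10.8% were listed at 0 in KO. Among genes at 5 to 10 FPKM in WT with a longer transcript, as Ptgis had, the share was 9.51%. Ptges, the inducible synthase of prostaglandin E2 that commonly works with PTGS2, was listed at 0 in both libraries. The remaining genes for prostaglandin E2 synthesis were Ptges3, at 39.3 FPKM in WT against 47.4 in KO, and Ptges2, at 0 and 3.50 FPKM.

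None of the 3 genes of the 5-lipoxygenase branch was past 3-fold, beside 27.3% of all genes compared. Each of the 3 had a higher value in KO, as did 51.3% of all genes compared. Alox5ap encodes FLAP, the membrane protein that hands arachidonic acid to ALOX5, and its difference was 0.17, a ratio of KO to WT of 1.13. It was the best measured gene of the set, with 1509 estimated fragments in WT against 2170.1 in KO. Alox5 was at 40.5 FPKM in WT against 52.1 in KO, a difference of 0.36. Lta4h, the hydrolase that forms leukotriene B4, was at 9.13 FPKM in WT against 17.2 in KO, a difference of 0.84 and the largest of the 3. FLAP transcripts were 14.1 times those of Alox5 in WT and 12.3 times in KO, the nearest of the ratios formed here to being level after that of Tbxas1 to Ptgs1. Alox5ap shares 13.3% of its annotated exon bases with an antisense gene, Gm19719, and Ptgis and Ptgs1 share 6.08% and 3.81% with genes on the opposite strand. The library protocol is not stated to mark strand, so reads of such pairs cannot be told apart.

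Alox15 (chr11:70344152-70352031), the 12/15-lipoxygenase of resident macrophages, oxidises arachidonic and linoleic acid and takes part in making lipoxins. It was at 6.50 FPKM in WT against 25.7 in KO, a ratio of KO to WT of 3.96 and a difference of 1.83, on an estimated 91.7 and 462 fragments. It lay in the same expression range as Hpgds, with the same background of 10.2%. The level of Alox15 relative to Alox5 went from 0.16 in WT to 0.49 in KO.

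**Figure D2:**
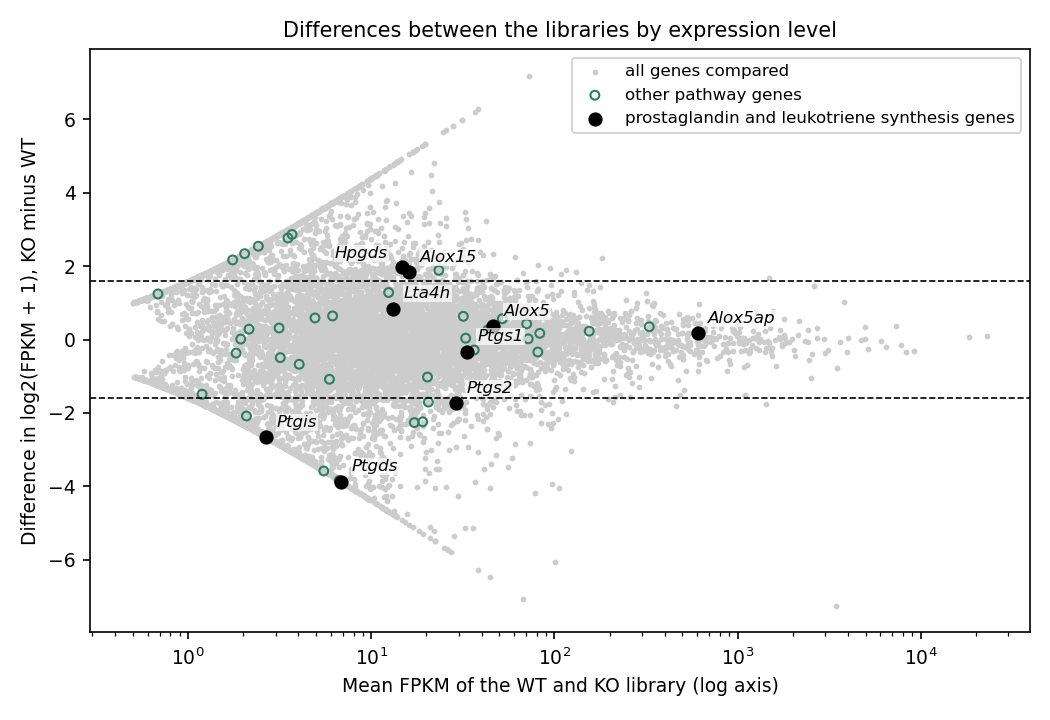
Difference in log2(FPKM + 1), KO minus WT, against the mean FPKM of both libraries (log axis) for the 10297 genes compared (grey), the other pathway genes (green rings) and the synthesis genes (black, named), with dashed lines at 3-fold. The spread of grey points widens toward low means, Alox5ap sits near 0 at the narrow end, and Ptgds and Ptgis lie on the lower edge formed by genes listed at 0 in KO.

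The share of genes past 3-fold depended on the level. It was 26.4% lower and 27.7% higher in KO at a mean of 1 to 5 FPKM, and 1.38% and 0.61% at 100 to 1000 FPKM. Ptgis lay in the first of these ranges and Alox5ap in the last. Differences past 3-fold were thus more frequent at the level of Ptgis than at that of Ptgs2, given above.

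The other genes of the pathway were then described from a list of 51, all found in the table. Of these, 36 passed the filter, 6 were past 3-fold lower in KO and 6 past 3-fold higher. The share of these 36 past 3-fold, 33.3%, stood beside 27.3% over all genes compared, and their median difference of 0.20 beside 0.03. Of the 21 with a mean of at least 5 FPKM, 5 were past 3-fold lower and 1 higher, where 18.1% of all genes with such a mean were past 3-fold in either direction. A further 13 were listed at 0 in both libraries.

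With a pseudocount of 1, 27.3% of all genes compared were past 3-fold. None of the 8 genes of arachidonate release that passed the filter was. This rested on the pseudocount for Pla2g6, singled out after its values were seen, at 2.23 FPKM in WT against 0.149 in KO, an estimated 38.6 and 3.28 fragments. Its difference was -1.49, and with a pseudocount of 0.1 it was -3.23, past 3-fold lower. With that pseudocount, 36.4% of all genes compared were past 3-fold in either direction. Pla2g4a, the cytosolic phospholipase A2 that feeds both branches, was low, at 2.19 FPKM in WT against 1.47 in KO. The secreted phospholipase Pla2g2d was at 71.4 and 72.4 FPKM. Pla2g7, which inactivates platelet-activating factor, was at 60.0 and 81.0 FPKM, and the lysosomal enzyme Pla2g15 at 41.7 and 62.2 FPKM.

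The most abundant of the other prostanoid synthases were Tbxas1 and Akr1b3. Tbxas1, which makes thromboxane, was at 90.8 FPKM in WT against 71.5 in KO, and stood at 2.44 times the level of Ptgs1 in both libraries. Akr1b3, a mouse aldose reductase with prostaglandin F synthase activity, was at 78.2 and 88.1 FPKM. Prxl2b, a prostamide and prostaglandin F synthase, was past 3-fold lower, at 32.2 FPKM in WT against 6.00 in KO, a difference of -2.24. Of this group of 6 genes, Prxl2b was the only one lower and Ptges2 the only one higher past 3-fold. The share past 3-fold was 33.3%, beside 27.3% over all genes compared.

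Ltc4s, which joins leukotriene A4 to glutathione and opens the cysteinyl leukotriene arm, was among the most abundant genes of the pathway. It was at 289.6 FPKM in WT against 369 in KO, a difference of 0.35, and shares 26.4% of its exon bases with an antisense gene, Gm26542. Its level was 31.7 times that of Lta4h in WT and 21.5 times in KO. Of the dipeptidases that trim the product, Dpep2 was at 40.2 and 32.8 FPKM, with 84.4% of its exon bases under another annotated Dpep2 entry on the same strand. Dpep1 was past 3-fold higher, at 0.153 FPKM in WT, which is less than 1 estimated fragment, and 6.85 FPKM in KO. Mgst3, a microsomal glutathione transferase, was at 13.4 FPKM in WT and listed at 0 in KO.

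Of the 7 genes of inactivation and export that passed the filter, 2 were past 3-fold lower and 1 past 3-fold higher, and their median difference was 0.63, beside 27.3% past 3-fold and a median of 0.03 over all genes compared. Hpgd, which starts the breakdown of prostaglandins, was at 27.5 FPKM in WT against 13.0 in KO, a difference of -1.02 that is within 3-fold. Ptgr1, a reductase of prostaglandins and leukotriene B4, was past 3-fold lower, at 29.1 and 5.26 FPKM, a difference of -2.27. Cyp4f18, which hydroxylates leukotriene B4, was at 31.9 and 9.08 FPKM, a difference of -1.71, and was also past 3-fold lower. The exporter Abcc1 went the other way, at 24.7 FPKM in WT against 38.9 in KO, within 3-fold. Ephx2, the soluble epoxide hydrolase, was listed at 0 in WT against 4.83 FPKM in KO, and the lipoxygenase relative Aloxe3 at 0 and 4.07 FPKM.

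Of the 5 prostanoid receptors that passed the filter, 1 was past 3-fold lower, 1 past 3-fold higher and 3 within. Over all genes compared, 27.3% were past 3-fold in either direction. The 2 receptors that raise cyclic AMP on binding prostaglandin E2 went apart. Ptger4 was at 9.38 FPKM in WT against 37.4 in KO, a difference of 1.89, past 3-fold higher, with 15.3% of its exon bases opposite the pseudogene Gm15937. Ptger2 was at 3.99 FPKM in WT against 0.175 in KO, past 3-fold lower, at an estimated 4.82 fragments in KO. Ltb4r1, the high-affinity receptor of leukotriene B4, was at 0.131 FPKM in WT, an estimated 1.07 fragments, and at 7.25 FPKM in KO. Fpr2, which binds lipoxins and formyl peptides, was at 11.0 FPKM in WT and listed at 0 in KO. Cmklr1, a receptor for chemerin and resolvins, was the highest of the receptors at 143 and 167 FPKM.

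**Figure D3:**
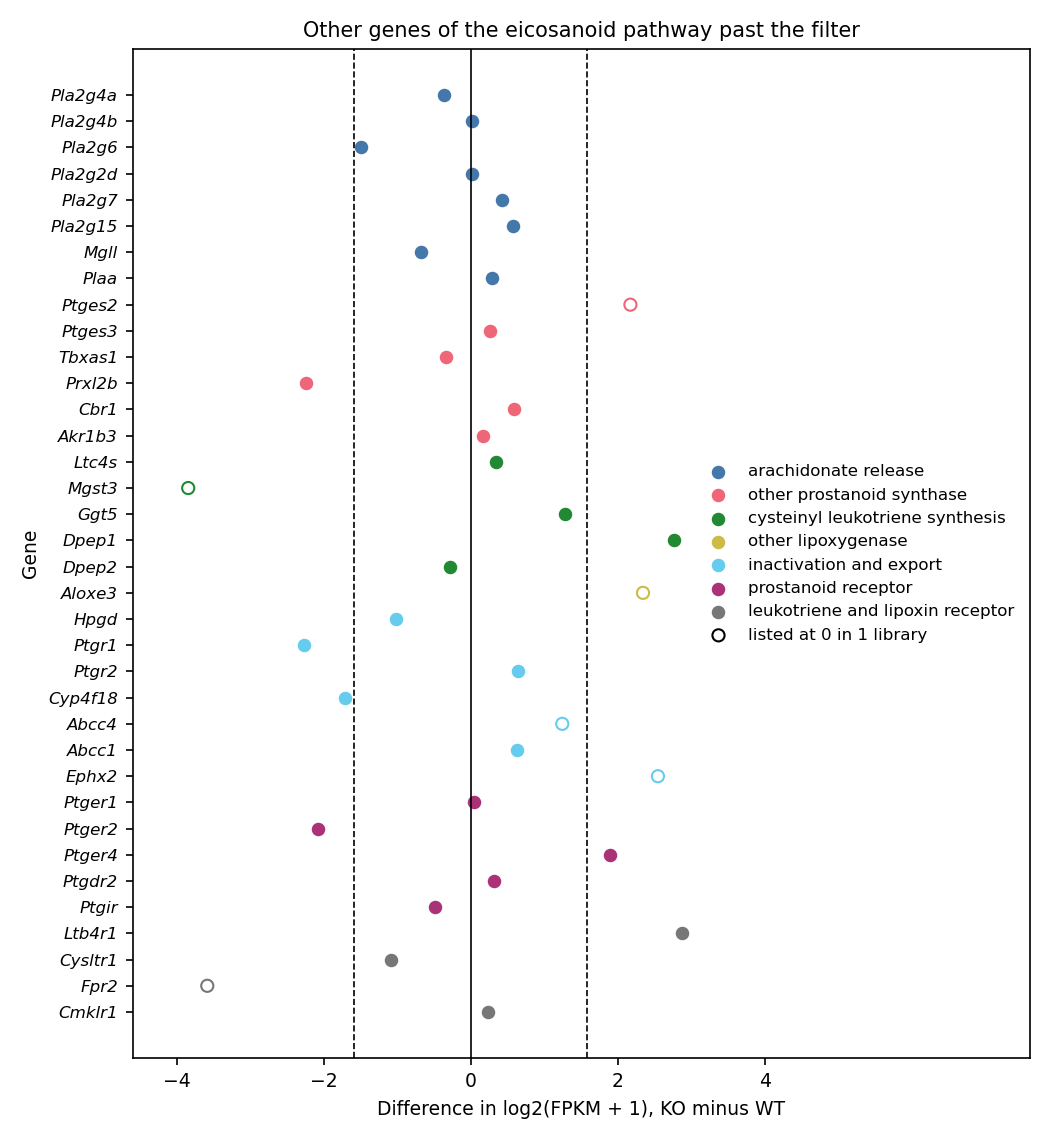
Difference in log2(FPKM + 1), KO minus WT, of the 36 other pathway genes past the filter, coloured by role, with dashed lines at 3-fold and open symbols for genes listed at 0 in 1 library. With this pseudocount of 1, 6 genes lie beyond the left line and 6 beyond the right line, and the genes of arachidonate release lie inside, Pla2g6 close to the left line.

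Several eicosanoid enzymes are also carried by cells other than macrophages, so markers of these cells were read beside them. Neutrophils express Alox5, Alox5ap and Cyp4f18. Their markers summed to 159 FPKM in WT against 533 in KO over 11 of 12 listed genes analysed here. All 8 that passed the filter were higher in KO, as were 51.3% of all genes compared. Of these 8, 4 were past 3-fold higher, beside 13.6% of all genes compared. Mpo, Ngp, Lcn2 and Retnlg reached 1 FPKM in KO alone, so that the filter fixed their direction. Nothing is therefore read from these counts. S100a8 and S100a9 made up 137 FPKM of the sum in WT and 484 in KO, and the other 9 genes 22.6 and 49.2, of which Elane, Ltf and Camp were at 0 in both libraries. Alox5, Alox5ap and Lta4h had higher values in KO like these markers, and Cyp4f18 was past 3-fold lower. The part of neutrophil RNA in the values of these genes was not tested.

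Mast cells are a known source of Hpgds and Ltc4s, and eosinophils of Alox15 and Ltc4s. Of 9 mast cell markers, 7 were at 0 in both libraries, including Cpa3, Fcer1a and the tryptase Tpsb2. The remaining 2 were Hdc, at 1.72 FPKM in WT against 13.8 in KO, and Kit, at 0 and 1.03 FPKM. Their sum was 1.72 FPKM in WT against 14.9 in KO. Of 6 eosinophil markers analysed here, 5 were at 0 in both libraries, including Siglecf, Epx and Prg2, and Ccr3 was at 0 in WT and 7.45 FPKM in KO.

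Peritoneal macrophages, which lie near visceral fat, are rich in Alox15 and Ptgis. Gata6, the factor that defines them, was at 0 in both libraries, and their 6 markers summed to 73.3 FPKM in WT against 37.6 in KO, most of it Timd4 at 53.4 and 25.1 FPKM. F5 of the same list went the other way, at 0.195 and 3.28 FPKM, past 3-fold higher. Timd4 also marks resident macrophages of other tissues. Ptgis moved in the direction of this sum and Alox15 against it. Adipocyte markers, read because Ptgds is known from fat, summed to 180.3 FPKM in WT against 167 in KO. Most of this sum was Fabp4, at 90.1 and 91.4 FPKM, and Pnpla2, at 84.4 and 74.3 FPKM. Adipoq and Plin1 were at 0 in both libraries. Cidec was at 5.83 FPKM in WT and listed at 0 in KO, as Ptgds was. Lep went the other way, at 0 in WT and 1.60 FPKM in KO. Ptgis is further known from endothelium, whose 6 markers summed to 18.7 FPKM in WT against 16.1 in KO. These markers went either way. Tie1 was at 4.12 FPKM in WT and listed at 0 in KO, as Ptgis was, and Vwf was at 1.03 and 0.116 FPKM. Pecam1 was higher in KO, at 6.67 and 8.70 FPKM, as were Cdh5, at 5.53 and 5.98 FPKM, and Kdr, at 1.01 and 1.36 FPKM. Tek was below the filter. Fibroblast markers, which accompany Ptgds and Ptgis in connective tissue, summed to 43.2 FPKM in WT against 84.3 in KO. Most of this sum was Dcn, at 35.0 and 62.3 FPKM. All 5 genes past the filter were higher in KO, as were 51.3% of all genes compared. Col1a2 and Pdgfra reached 1 FPKM in KO alone, so that the filter fixed their direction. Ptgds and Ptgis were lower in KO. Platelet markers summed to 16.2 FPKM in WT against 1.57 in KO, with Gp9, Gp6 and Itgb3 at 0 in both, and Tbxas1 and Ptgs1, which platelets carry, were lower in KO as well, with differences of -0.34 and -0.33 that are within 3-fold. The part of mast cell, eosinophil, peritoneal, adipocyte, endothelial, fibroblast and platelet RNA in these results was not tested.

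**Figure D4:**
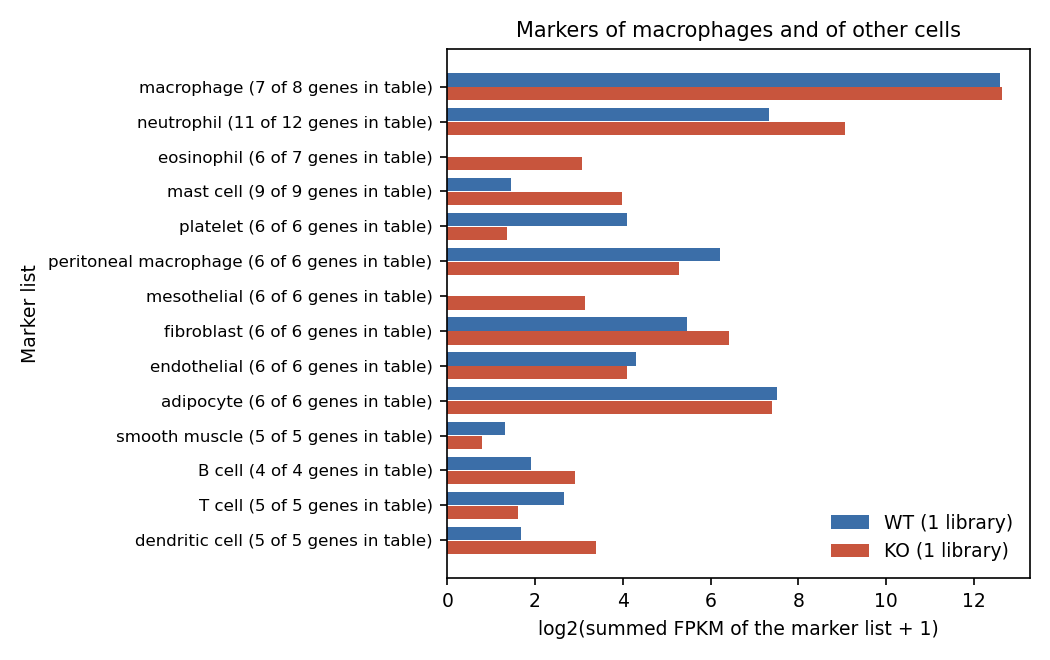
Summed FPKM of each marker list, as log2(sum + 1), in the WT library (blue) and the KO library (red), with the number of listed genes found in the table. The macrophage sums are 6126 and 6370 FPKM, neutrophil markers are higher in KO and platelet markers higher in WT.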

How the data were processed

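The authors deposited FPKM values (fragments per kilobase of transcript scaled to the mapped total) for each gene in 2 libraries of sorted adipose tissue macrophages. The submitters' processing notes name CASAVA 1.8.2, TopHat2 2.0.9, Cufflinks 2.2.1 and the mm9 build; the annotation is not given in the sources used here. The column labelled "mut" was taken as the KO library. Of 20749 rows, 401 full repeats were dropped and 18 rows with other values for a listed identifier were summed, leaving 20330 genes, of which 20035 had a symbol. Prxl2b was matched through a RefSeq synonym.

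WT was subtracted from KO on the log2(FPKM + 1) scale for 10297 genes that reached 1 FPKM in either library. A gene was counted as lower or higher past a 3-fold difference on this scale, which understates changes of low genes. FPKM values are not counts, each genotype had 1 library, and no test, standard error or p-value was computed. Fragments were estimated from the smallest recurring FPKM x kb in genes with 1 annotated transcript, with transcript lengths from GENCODE M21 (GRCm38). This step was 0.171 in WT and 0.134 in KO. The members, gene lists, alternatives and naming rule were chosen with earlier results of these data known. The naming rule took all members, pathway genes past 3-fold and pathway genes at 20 FPKM or more in either library, with others only as background. The values of 1 such receptor gene, which was within 3-fold, are not reported here. The call procedure was run on simulated data without noise, in which chosen genes at 20 FPKM or more in WT were changed past 3-fold. Such a run checks the arithmetic alone and says nothing about calls on low or noisy values. Analyses used Python 3.11.15 and pandas 2.3.3.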

Additional observations from a re-analysis of the deposited data

How the results depend on the processing

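The difference of a single gene could move only with the pseudocount and the scaling, since the filters and the other handling of repeated identifiers left it as it was. With pseudocounts of 0.1 and 0.01 and both scalings, by log2 factors of 0.04 and 0.01 that leave a KO value of 0 as it is, the 9 genes with a value kept their direction and their side of 3-fold. Over these, Ptgs2 ranged from -1.80 to -1.69, Hpgds from 1.99 to 2.18 and Alox15 from 1.83 to 1.98. Ptgds and Ptgis are listed at 0 in KO, so their difference is set by the pseudocount, at -7.11 and -5.77 with 0.1 and at -10.42 and -9.06 with 0.01. When 1 FPKM was required in each library neither is left, and the count of lower genes in the set fell to 1. The same filter left 3 lower and 1 higher among the other pathway genes, and 447 lower and 429 higher among all genes. A mean FPKM of at least 5 left 5 lower and 1 higher pathway genes, with 646 lower and 598 higher over all genes. A 2-fold threshold gave 2314 lower and 2380 higher. Both filters leave fewer genes. Pseudocounts of 0.1 and 0.01 each gave 7 lower and 7 higher pathway genes, with Pla2g6 and Abcc4 added. The other recomputed counts were within 1.5-fold. The median difference ranged from 0.09 without a filter to 0.36 with 1 FPKM in each library for the synthesis genes. For the other pathway genes it ranged from 0 without a filter to 0.24 when the libraries were scaled to the same sum. No paired analysis was possible because only 1 library was made per genotype.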
